A study of Mus musculus with 8 samples.

Results

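Glutathione enzymes and the other enzymes that remove reactive oxygen species were compared in epididymal white adipose tissue (a visceral fat depot) of male mice with and without LPA4, a receptor for lysophosphatidic acid. The members were the genes of the platform annotation whose symbols begin with Gst, Gpx, Prdx or Txnrd in the numbered form of those families, together with Sod1, Sod2, Sod3, Cat, Gclc, Gclm, Gsr, Nqo1 and Hmox1. The rule found 45 genes, and 43 of them had at least 1 probe set of their own among the 18193 genes measured. Gsta1 and Prdx1 were listed on probe sets shared with other genes and were not measured on their own. There were 4 LPA4-KO mice (Lpar4 -/Y, on a C57BL/6 background) and 4 WT mice, all male littermates of 12 weeks fed standard chow, with 1 array for each animal. The Lpar4 genotype is the only difference between the groups that the labels name, and the way the allele was made is not given in the sources used here.

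Glutathione is a small thiol that cells make from glutamate, cysteine and glycine, with glutamate-cysteine ligase (the catalytic subunit Gclc and the modifier subunit Gclm) as the rate-limiting step. Superoxide dismutases turn superoxide into hydrogen peroxide, which catalase, the glutathione peroxidases and the peroxiredoxins then remove, while thioredoxin and glutathione reductases restore the reduced thiols with NADPH. Glutathione S-transferases join glutathione to reactive lipids and foreign compounds, and in fat they act on aldehydes made when lipids are oxidised. The transcription factor NRF2, encoded by Nfe2l2, drives many of these genes through the antioxidant response element in their promoters.

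Levels are given in the log2 units in which the table was deposited, and the array values are given in the order of replicates 1 to 4. Differences are LPA4-KO minus WT with their SE, and adjusted p-values are from limma. Of the 43 measured members 24 spanned more than 0.1 log2 over the 8 arrays (55.8%, against 22.1% of all genes) and are called varying here. The other 19 were nearly constant in this table at the probe set that represents each, with spans of at most 0.013 log2. A nearly constant value cannot be read as a lack of change, and these members stood at levels from 5.82 (Gsta2) to 12.02 (Sod1). Each comparison was therefore made over all genes and again in the 4029 varying genes. Both adjusted p-values are given for each gene described as called in the varying genes alone. An adjusted p-value with no fit named is the one over all genes. The span includes the difference between genotypes, so a gene can pass the limit through that difference, which favours calls in the varying genes.

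The targeted gene was checked first. At 1 of the 3 Lpar4 probe sets, the LPA4-KO arrays (5.74 to 5.86) lay below the WT arrays (6.48 to 6.54), a difference of -0.71 ± 0.03 (adjusted p = 0.0033 over all probe sets). At the other 2 the LPA4-KO arrays (6.57 to 7.69 and 6.71 to 7.94) overlapped the WT arrays (6.22 to 6.66 and 6.75 to 6.95), with differences of 0.68 ± 0.24 and 0.48 ± 0.25 that did not pass. Where these probe sets lie relative to the deleted part is not given in the sources used here, and a probe set outside it checks nothing. Between the 3′ and 5′ control probe sets of Gapdh the difference was 0.56 to 0.60 in LPA4-KO and 0.57 to 0.63 in WT arrays (exact permutation p = 0.543), and for Actb it was 1.21 to 1.33 in LPA4-KO and 1.14 to 1.22 in WT arrays (exact permutation p = 0.171). The summed level of adipocyte markers was 15.65 to 15.73 in LPA4-KO and 15.65 to 15.67 in WT arrays (exact permutation p = 0.143). Adipoq and Fabp4, the highest of these markers, were nearly constant at 13.83 and 13.40, which limits how far the sum can move. Of the 6 varying markers 4 were positive and 2 negative. The groups did not overlap at Retn (0.18 ± 0.06) or at Plin4 (-0.14 ± 0.05). The summed level of epididymis and testis markers, of which none of the 8 measured varied, was 9.17 to 9.18 in both groups.

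The manganese superoxide dismutase of mitochondria, Sod2, was the member that rose over all genes. In the varying genes Sod2, the mitochondrial peroxiredoxin Prdx3, the thioredoxin reductase Txnrd3 and Gclm rose, and the secreted glutathione peroxidase Gpx3 and the mu-class transferase Gstm1 fell. In bulk tissue, fewer cells of a type and less RNA per cell cannot be told apart. Differences ran from -0.44 to 0.39 log2 over the 24 varying members, 12 of them positive and 12 negative. Over all genes 1 of 43 members was called (2.33%), against 1.31% of all genes, with 1 higher, where 0.863% of all genes were called higher, and 0 lower, where 0.451% were. At an unadjusted p under 0.05 limma found 11 of the 43 (25.6%, against 17.6% of all genes), and 2 of these (Gpx5 and Gstt4) were nearly constant. The other 9 were among the 24 varying members, a share like that of varying genes in general, where 1605 of 4029 passed. After quantile normalization 18 of the 43 were called over all genes (41.9%), 16 higher and 2 lower. In that setting 51.9% of all genes were called, 48.4% higher and 3.5% lower. More genes were called there (9436) than varied (4029), so nearly constant genes were among them. The median difference of all genes was 0.0053 log2 in that setting, against 4e-05 in the deposited values. These shares are therefore not read as a result about the members. In the varying genes 4 of 24 were called higher and 2 lower (25% in all), where 21.3% of varying genes were called, 9.78% higher and 11.5% lower. The share of members called in the varying genes was thus near the background. After quantile normalization 5 of the 24 were called higher and 2 lower (29.2% in all), where 21.8% of varying genes were called, 12.5% higher and 9.33% lower. The median difference of the 24 was 0.00 log2, against -0.03 for all varying genes, and the median size of the difference was 0.21 log2, against 0.18.

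**Figure D1:**
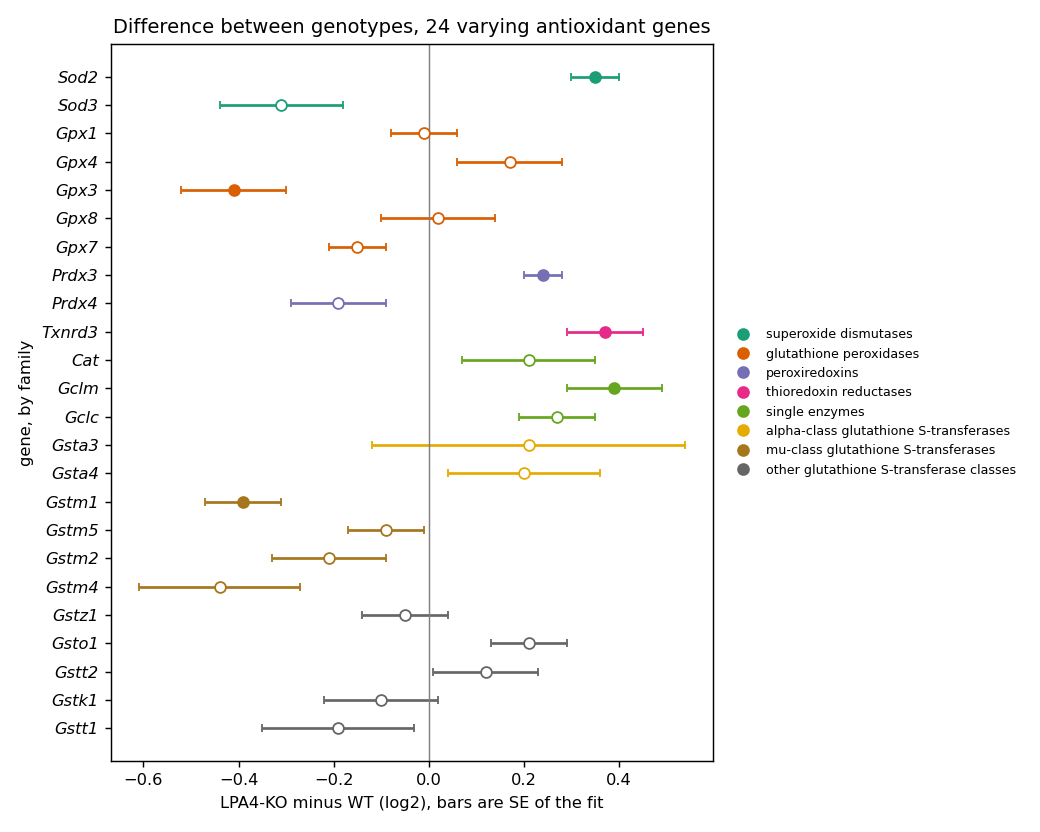
Difference between LPA4-KO and WT mice (log2, horizontal axis) for the 24 varying members, grouped by enzyme family (colours), with SE bars from the fit over all genes. Filled points are the 6 members called in the varying genes, with Sod2, Prdx3, Txnrd3 and Gclm to the right of 0 and Gpx3 and Gstm1 to the left.

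Promoters of members are shown here because the pathway is known for control through a shared element. RefSeq promoters of GRCm38.p6, 250 bases before to 50 after each start, were found for 39 of the 45 members. The core of the antioxidant response element, TGACNNNGC on either strand, was present in 7 of these 39 genes (17.9%), against 3781 of 27025 genes with a promoter (14%). These 7 were Gclm, Gsta3, Gstm5, Gstm7, Prdx1, Sod1 and Txnrd1, so 1 of the 6 called members (Gclm) held it. A match is a run of letters and no evidence of binding, and a window without one says nothing of the rest of the gene. The promoters of the member called over all genes, of the called member with a match and of the member of the mu class that fell are printed 5′ to 3′ in lower case, with the match in capitals. For Gstm1 the window of 1 of its 2 listed starts is shown.
Sod2, chr17:13007589-13007888, plus strand: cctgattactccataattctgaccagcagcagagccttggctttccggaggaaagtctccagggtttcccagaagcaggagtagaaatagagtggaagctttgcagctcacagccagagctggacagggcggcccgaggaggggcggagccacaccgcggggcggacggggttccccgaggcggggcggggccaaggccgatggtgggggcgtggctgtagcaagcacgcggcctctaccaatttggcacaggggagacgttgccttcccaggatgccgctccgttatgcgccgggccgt
Gclm, chr3:122245307-122245606, plus strand: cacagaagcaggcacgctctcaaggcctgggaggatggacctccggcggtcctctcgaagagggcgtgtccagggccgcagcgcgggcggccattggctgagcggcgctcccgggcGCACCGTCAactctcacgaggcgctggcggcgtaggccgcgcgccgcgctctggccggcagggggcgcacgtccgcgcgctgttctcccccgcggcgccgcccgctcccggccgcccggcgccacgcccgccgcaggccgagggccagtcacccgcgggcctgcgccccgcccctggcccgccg
Gstm1, chr3:108017769-108018068, minus strand: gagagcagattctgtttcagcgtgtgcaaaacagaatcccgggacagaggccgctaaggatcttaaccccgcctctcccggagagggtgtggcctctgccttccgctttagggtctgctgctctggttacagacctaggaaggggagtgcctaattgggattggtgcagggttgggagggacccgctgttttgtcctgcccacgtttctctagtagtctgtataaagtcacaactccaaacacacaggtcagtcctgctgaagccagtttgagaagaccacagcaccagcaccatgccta
The match in Gclm is on the other strand, with its first base at position 117 of the 300 printed.

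Among the superoxide dismutases, Sod2 and Sod3 differed in opposite directions. Sod2 stood at 10.76, 10.79, 10.78 and 10.63 in LPA4-KO arrays, against 10.29, 10.44, 10.46 and 10.35 in WT arrays. Every LPA4-KO array lay above every WT array. Sod2 was 1.28-fold higher (0.35 ± 0.05, adjusted p = 0.039 over all genes and 0.011 in the varying genes). Its other varying probe sets moved the same way, with 10.45, 10.36, 10.38 and 10.28 in LPA4-KO and 9.93, 10.06, 10.08 and 10.01 in WT arrays at the second (0.35 ± 0.05, adjusted p = 0.036 over all probe sets). At the third the LPA4-KO mean was 7.72 ± 0.22 and the WT mean 7.17 ± 0.16 (SD, n = 4 each), a difference of 0.55 ± 0.13 with an adjusted p of 0.12 over all probe sets and 0.021 in the varying ones. The call over all genes did not hold when any 1 of the 8 arrays was left out (adjusted p from 0.065 to 0.11), while in the varying genes it held in each of those fits (0.017 to 0.033).

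Sod3, the extracellular enzyme that binds to the matrix, had 8.02, 7.93, 8.20 and 8.04 in LPA4-KO arrays, against 8.25, 8.07, 8.61 and 8.52 in WT arrays. WT replicates 3 and 4 were the highest arrays and the groups overlapped. The difference was -0.31 ± 0.13 (adjusted p = 0.29 over all genes and 0.089 in the varying genes). Sod1, the cytosolic copper-zinc enzyme, was represented by a nearly constant probe set at 12.02. Its varying probe set averaged 12.01 ± 0.08 in LPA4-KO and 11.94 ± 0.10 in WT (SD, n = 4 each), with a difference of 0.07 ± 0.06 that did not pass (adjusted p = 0.65 over all probe sets).

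**Figure D2:**
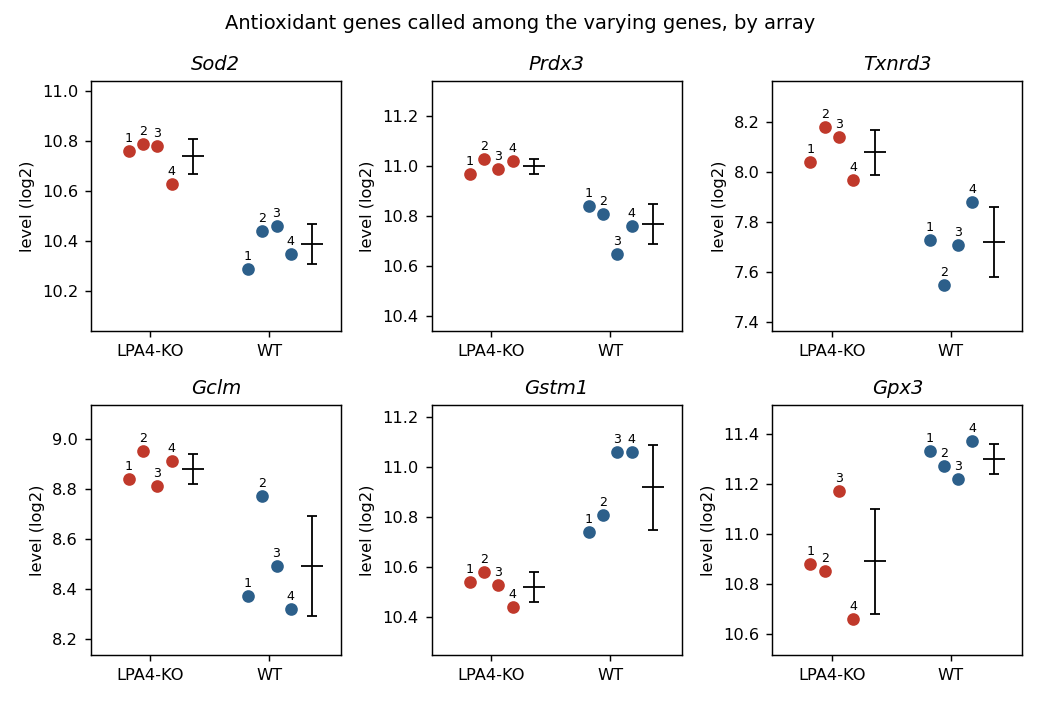
Levels (log2, vertical axis) of the 6 members called in the varying genes, with a point for each array numbered by replicate, LPA4-KO in red and WT in blue, and the mean with SD as a black bar. The groups do not overlap in any of the 6, and each panel spans 1 log2 unit.

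Among catalase and the glutathione peroxidases, Gpx3 fell in the varying genes and the others did not pass. Gpx1, the cytosolic glutathione peroxidase, had 13.18, 13.24, 13.18 and 13.37 in LPA4-KO arrays, against 13.15, 13.42, 13.29 and 13.17 in WT arrays. The groups overlapped widely and the difference was -0.01 ± 0.07 (adjusted p = 0.96), and its sign turned under 3 of 5 scalings. Cat, the catalase of peroxisomes, had 12.11, 12.24, 12.08 and 12.40 in LPA4-KO arrays, against 12.00, 12.34, 11.80 and 11.88 in WT arrays. WT replicate 2 lay among the LPA4-KO arrays, and Cat did not pass (0.21 ± 0.14, adjusted p = 0.49 over all genes and 0.22 in the varying genes). Gpx4, which reduces lipid hydroperoxides within membranes, differed by 0.17 ± 0.11 (adjusted p = 0.51), with WT replicate 1 the lowest array at 11.59.

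Gpx3, the peroxidase that cells secrete into plasma and that fat also makes, was lower in LPA4-KO mice. It stood at 10.88, 10.85, 11.17 and 10.66 in LPA4-KO arrays, against 11.33, 11.27, 11.22 and 11.37 in WT arrays. The LPA4-KO arrays were the more spread, with replicate 3 just under the lowest WT array. Gpx3 was 1.33-fold lower (-0.41 ± 0.11, adjusted p = 0.12 over all genes and 0.023 in the varying genes). Its call in the varying genes did not hold when LPA4-KO replicate 1 or 2, or WT replicate 4, was left out (adjusted p up to 0.055). Of the peroxidases of the endoplasmic reticulum, Gpx7 differed by -0.15 ± 0.06 (adjusted p = 0.30) and Gpx8 by 0.02 ± 0.12 (adjusted p = 0.97). Gpx2, Gpx5 and Gpx6 were nearly constant at 6.87, 6.37 and 6.11, and Gpx5 is known as an enzyme of the epididymis.

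Prdx3, which removes peroxide in mitochondria, was higher in LPA4-KO mice. It stood at 10.97, 11.03, 10.99 and 11.02 in LPA4-KO arrays, against 10.84, 10.81, 10.65 and 10.76 in WT arrays. The LPA4-KO arrays lay close together and above every WT array. The rise was 1.18-fold (0.24 ± 0.04, adjusted p = 0.059 over all genes and 0.024 in the varying genes), and in the varying genes it held in 3 of 8 fits with 1 array left out. It ended when LPA4-KO replicate 2, 3 or 4 was left out, or WT replicate 3 or 4, with adjusted p up to 0.062. Prdx4, the peroxiredoxin of the endoplasmic reticulum, had 8.78, 8.83, 8.93 and 8.62 in LPA4-KO arrays, against 8.82, 8.88, 9.15 and 9.10 in WT arrays, and did not pass (-0.19 ± 0.10, adjusted p = 0.38 over all genes and 0.17 in the varying genes).

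Txnrd3, a thioredoxin reductase with a glutaredoxin domain that is known mainly from testis, stood at 8.04, 8.18, 8.14 and 7.97 in LPA4-KO arrays, against 7.73, 7.55, 7.71 and 7.88 in WT arrays. Every LPA4-KO array lay above every WT array. Txnrd3 was 1.29-fold higher (0.37 ± 0.08, adjusted p = 0.086 over all genes and 0.021 in the varying genes). Its other 2 probe sets differed by 0.21 ± 0.08 and 0.34 ± 0.12 and did not pass among the varying probe sets (adjusted p = 0.11 and 0.064). The call in the varying genes ended when LPA4-KO replicate 2 or 3, or WT replicate 3, was left out (adjusted p up to 0.055). Txnrd1, the cytosolic reductase, and Txnrd2, the mitochondrial one, were nearly constant at 8.64 and 7.63.

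In glutathione synthesis, the modifier subunit Gclm and the catalytic subunit Gclc both had positive differences. Gclm stood at 8.84, 8.95, 8.81 and 8.91 in LPA4-KO arrays, against 8.37, 8.77, 8.49 and 8.32 in WT arrays. WT replicate 2 came close to the lowest LPA4-KO array, and the groups did not overlap. Gclm was 1.31-fold higher (0.39 ± 0.10, adjusted p = 0.12 over all genes and 0.027 in the varying genes). Without 1 array the call in the varying genes held in 2 of 8 fits, those leaving out LPA4-KO replicate 3 and WT replicate 2, and adjusted p was up to 0.065 in the others. Its second probe set differed by 0.16 ± 0.11 and did not pass (adjusted p = 0.29 among the varying probe sets). Gclc had 8.59, 8.74, 8.61 and 8.78 in LPA4-KO arrays, against 8.41, 8.62, 8.28 and 8.35 in WT arrays, and missed the threshold in both fits (0.27 ± 0.08, adjusted p = 0.17 over all genes and 0.055 in the varying genes). Gsr, which reduces oxidised glutathione, Nqo1, a quinone reductase, and Hmox1, a haem oxygenase, were nearly constant at 8.38, 7.07 and 7.55.

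The glutathione S-transferases numbered 20 measured genes, 11 of them varying. None was called over all genes by limma, where 1.31% of all genes were called. In the varying genes 1 of the 11 was called, Gstm1 (9.09%), where 21.3% of varying genes were called. At an unadjusted p under 0.05 limma found 4 of the 20, where 17.6% of all genes passed. Of the 11 varying it found 3, where 1605 of all 4029 varying genes passed. All 4 varying genes of the mu class were negative, with a median of -0.30 log2, and kept that sign under 5 other scalings. Those scalings moved the differences little (Gstm4 from -0.44 to between -0.43 and -0.37), so the kept sign is a weak check. Gstm1 stood at 10.54, 10.58, 10.53 and 10.44 in LPA4-KO arrays, against 10.74, 10.81, 11.06 and 11.06 in WT arrays. The LPA4-KO arrays lay close together and under every WT array. Gstm1 was 1.31-fold lower (-0.39 ± 0.08, adjusted p = 0.084 over all genes and 0.016 in the varying genes), and the call in the varying genes held in all 8 fits with 1 array left out. Its 2 other varying probe sets differed by -0.40 ± 0.11 and -0.35 ± 0.10 (adjusted p = 0.031 and 0.040 among the varying probe sets), and the remaining one was nearly constant.

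Gstm4 had 7.44, 7.32, 7.44 and 7.45 in LPA4-KO arrays, against 7.52, 7.57, 8.15 and 8.16 in WT arrays. The WT arrays fell into a lower and a higher pair, and the difference of -0.44 ± 0.17 did not pass (adjusted p = 0.26 over all genes and 0.072 in the varying genes). Gstm2 differed by -0.21 ± 0.12 and Gstm5 by -0.09 ± 0.08, with overlapping groups. WT replicates 3 and 4 were the 2 highest arrays in all 4 of these genes, and in 3 of the 20 varying members of other families (Gstt1, Prdx4 and Sod3). In RefSeq the 7 Gstm genes follow each other on chromosome 3 with no other protein-coding gene between them, in the order Gstm5, Gstm7, Gstm6, Gstm3, Gstm2, Gstm1 and Gstm4. Their sequences are closely alike, so a probe set of 1 gene, above all those with the suffix _x_at, can hold signal of another. The probe set that represents Gstm1 carries this suffix, and so does 1 of its 2 other varying probe sets (-0.35 ± 0.10). The varying Gstm1 probe set without the suffix differed by -0.40 ± 0.11. Gstm3, Gstm6 and Gstm7 were nearly constant at 7.39, 6.33 and 6.53.

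The alpha class and the remaining classes showed no call in either fit. Gsta3, which conjugates lipid aldehydes, was the most spread member, with 9.94, 9.74, 9.32 and 10.55 in LPA4-KO arrays, against 9.09, 10.15, 9.64 and 9.81 in WT arrays. The groups overlapped (0.21 ± 0.33, adjusted p = 0.81), and its second probe set had the same highest and lowest arrays, with LPA4-KO replicate 4 highest (9.02) and WT replicate 1 lowest (8.02). Gsta4, whose enzyme prefers the lipid aldehyde 4-hydroxynonenal, differed by 0.20 ± 0.16 (adjusted p = 0.57). Gstz1, the maleylacetoacetate isomerase of tyrosine breakdown, had 11.17, 10.90, 10.75 and 11.10 in LPA4-KO arrays, against 11.00, 11.10, 11.00 and 11.03 in WT arrays (-0.05 ± 0.09, adjusted p = 0.84). Its LPA4-KO arrays spread on both sides of WT. Gsto1 of the omega class differed by 0.21 ± 0.08 (adjusted p = 0.26 over all genes and 0.096 in the varying genes). At its second probe set the LPA4-KO arrays (10.21, 10.33, 10.33 and 10.29) lay above the WT arrays (10.09, 10.18, 10.03 and 10.12), with 0.19 ± 0.04 and an adjusted p of 0.059 among the varying probe sets. Gstt1, Gstt2 and Gstk1 differed by -0.19 ± 0.16, 0.12 ± 0.11 and -0.10 ± 0.12. Gstp1, Gstp3, Gsto2, Gstt3, Gstt4 and Gsta2 were nearly constant.

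**Figure D3:**
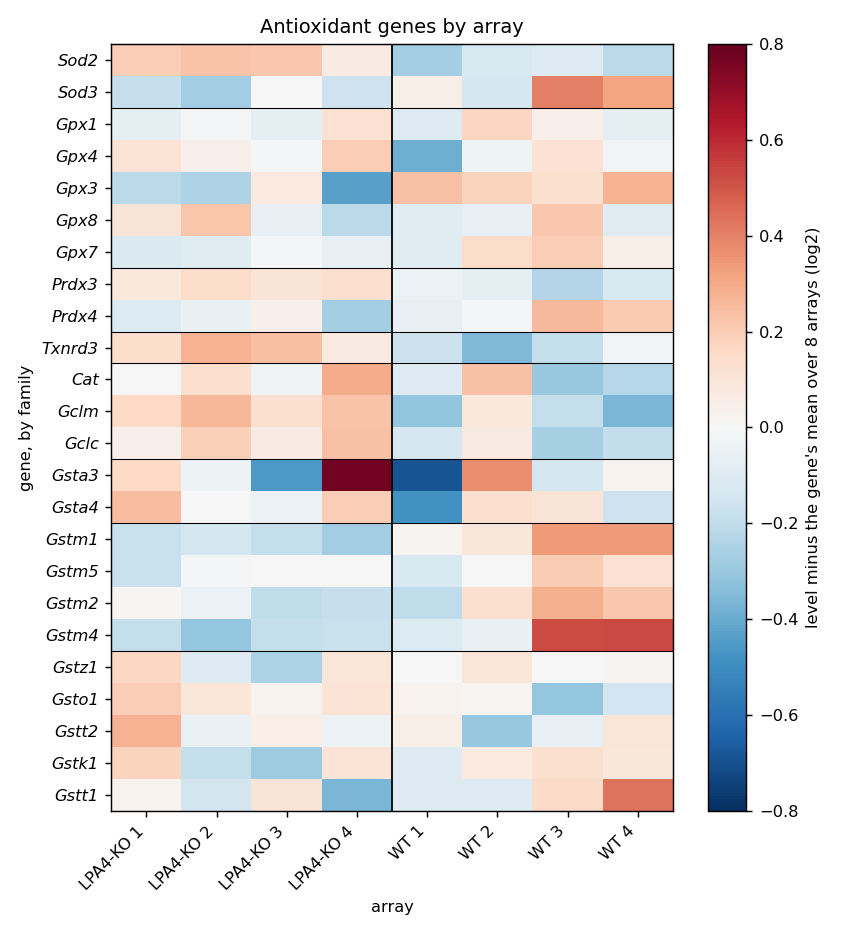
Level of each varying member minus its own mean over the 8 arrays (log2, colour scale), with arrays across, LPA4-KO left of the black line and WT right of it, and genes down, families parted by thin lines. The mu-class genes are highest in WT 3 and WT 4, and Gsta3 is highest in LPA4-KO 4 and lowest in WT 1.

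Across the 24 varying members the groups did not overlap in 7 (29.2%), 4 of them higher and 3 lower in LPA4-KO mice. Among varying genes in general 28.9% did not overlap, 14.4% higher and 14.5% lower. The members did not follow a common order of arrays. Gsta3, Gpx1, Cat and Gclc shared LPA4-KO replicate 4 and WT replicate 2 as the highest arrays of their groups. WT replicate 1 was the lowest WT array in 14 of the 24, and LPA4-KO replicate 3 the lowest LPA4-KO array in 10. Where a member had more than 1 varying probe set, the probe sets differed in the same direction in all 11 such genes. Of the 74 probe sets of members 2 were called over all probe sets (2.7%, both of Sod2), where 0.933% of all probe sets were called (0.612% higher and 0.321% lower). Of the 39 that varied 10 were called among the varying probe sets, where 18.8% were called (8.35% higher and 10.5% lower). All 10 belonged to members already called in the varying genes, several of them to Sod2 and to Gstm1. They repeat those calls on the same arrays and are no further support.

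Summed markers of progenitors and fibroblasts and of red blood cells separated the genotypes in the same arrays, and those of macrophages, mesothelium and endothelium did not pass. The log2 summed level of progenitor and fibroblast markers was 13.59 to 13.90 in LPA4-KO and 14.01 to 14.14 in WT arrays (9 of 9 measured varying, exact permutation p = 0.0286, the smallest that 4 against 4 arrays can give). That of macrophage markers was 13.52 to 13.71 in LPA4-KO and 13.67 to 14.01 in WT arrays (9 of 10 varying, exact permutation p = 0.0571), with the defining marker Adgre1 nearly constant. Mesothelial markers summed to 11.00 to 11.53 in LPA4-KO and 11.42 to 12.31 in WT arrays (10 of 10 varying, exact permutation p = 0.0857). Endothelial markers stood at 12.11 to 12.22 in LPA4-KO and 12.22 to 12.38 in WT arrays (4 of 10 varying, exact permutation p = 0.171). Red blood cell markers summed to 9.84 to 10.00 in LPA4-KO and 9.69 to 9.80 in WT arrays (2 of 7 varying, exact permutation p = 0.0286). Those 2 were Alas2, of haem synthesis, and Slc4a1, the anion exchanger of the red cell, and the globin genes were nearly constant. The part of these cells in the lower Gstm1 and Gpx3 and in the higher Sod2, Prdx3, Txnrd3 and Gclm was not tested.

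Genes that work beside these enzymes were taken from 9 lists, with 103 genes measured and 65 varying. Over all genes 4 rose and 0 fell by limma (3.88%), where 1.31% of all genes were called, 0.863% higher and 0.451% lower. Of the 103 genes 63.1% varied, against 22.1% of all genes. In the varying genes 14 rose and 2 fell (24.6%), where 21.3% were called, 9.78% higher and 11.5% lower. The lists were chosen with earlier results of these data known. At an unadjusted p under 0.05 limma found 28 of the 103, where 17.6% of all genes passed. Of the 65 varying it found 23, where 1605 of all 4029 varying genes passed. The median over the 65 was 0.04 log2. Of the 14 measured genes of glutathione synthesis and breakdown 2 rose over all genes. Chac2, which degrades glutathione slowly, stood at 7.44, 7.27, 7.40 and 7.35 in LPA4-KO arrays, against 7.02, 6.93, 6.93 and 6.98 in WT arrays (0.40 ± 0.04, adjusted p = 0.023). Lap3, a leucine aminopeptidase that also cleaves cysteinylglycine, had 9.75, 9.61, 9.58 and 9.68 in LPA4-KO arrays, against 9.22, 9.26, 9.34 and 9.31 in WT arrays (0.37 ± 0.04, adjusted p = 0.030). In both genes every LPA4-KO array was above every WT array. In the varying genes Cth, which makes cysteine from cystathionine, rose too (0.75 ± 0.23, adjusted p = 0.17 over all genes and 0.03 in the varying genes). So did Oplah, the 5-oxoprolinase that returns glutamate (0.37 ± 0.09, adjusted p = 0.096 over all genes and 0.024 in the varying genes). Dpep1, a dipeptidase that cleaves cysteinylglycine, fell (-0.45 ± 0.11, adjusted p = 0.1 over all genes and 0.019 in the varying genes). The call of Chac2 over all genes ended without each array but LPA4-KO replicate 2 and WT replicate 1, and that of Lap3 without each of the 8.

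The microsomal glutathione transferases are membrane proteins unrelated in sequence to the soluble ones. Of 10 genes in that list, Mgst1 rose over all genes, with 13.45, 13.43, 13.37 and 13.44 in LPA4-KO arrays, against 13.30, 13.32, 13.28 and 13.29 in WT arrays (0.12 ± 0.02, adjusted p = 0.0497). The separation was small and the arrays of each group close together, and the call ended without each of the 8 arrays. Adjusted over all probe sets, the same values were not called (adjusted p = 0.057). In the varying genes Mgst3 rose as well (0.45 ± 0.12, adjusted p = 0.13 over all genes and 0.022 in the varying genes). So did Ltc4s, the leukotriene C4 synthase (0.41 ± 0.12, adjusted p = 0.14 over all genes and 0.03 in the varying genes). The exporter gene Abcc5 also rose (0.34 ± 0.10, adjusted p = 0.15 over all genes and 0.038 in the varying genes). Its groups overlapped, with 7.67 the lowest LPA4-KO and 7.73 the highest WT array. Of 10 genes of aldehyde detoxification, Hagh, the glyoxalase that releases glutathione again, rose over all genes, with 9.43, 9.45, 9.40 and 9.43 in LPA4-KO arrays, against 9.20, 9.24, 9.21 and 9.21 in WT arrays (0.21 ± 0.01, adjusted p = 0.013). The arrays of each group lay close together, and the call held in all 8 fits with 1 array left out (adjusted p from 0.011 to 0.05). Its second varying probe set had 9.25, 9.20, 9.26 and 9.46 in LPA4-KO arrays, against 9.01, 9.13, 9.22 and 9.26 in WT arrays, with overlapping groups and no call (0.14 ± 0.08, adjusted p = 0.44 over all probe sets). With the mean of its probe sets in place of the chosen one, Hagh differed by 0.12 and was not called (adjusted p = 0.086). In the varying genes the epoxide hydrolase gene Ephx2 rose (0.33 ± 0.07, adjusted p = 0.087 over all genes and 0.016 in the varying genes). Within each group Mgst1 and Hagh spanned less than 0.1 log2, so both count as varying only through the difference between genotypes.

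Genes that supply reducing power or control the pathway had no call over all genes by limma. At an unadjusted p under 0.05 limma found 3 of 11 genes of NADPH supply and 2 of 10 regulators. Of the 19 thioredoxins, glutaredoxins and repair genes it found 5, and of all genes 17.6% passed. Among the varying genes of these lists it found 2 of 8, 2 of 5 and 3 of 12, where 1605 of all 4029 varying genes passed. In NADPH supply 7 of 8 varying genes were positive, where 46.6% of all varying genes were. In the varying genes 1 of the 8 was called (12.5%), where 21.3% of varying genes were called. This was Me1, the cytosolic malic enzyme, with 10.47, 10.33, 10.35 and 10.47 in LPA4-KO arrays, against 9.99, 10.18, 10.13 and 10.09 in WT arrays (0.31 ± 0.05, adjusted p = 0.058 over all genes and 0.017 in the varying genes). Its second probe set differed by 0.22 ± 0.08 and did not pass among the varying probe sets (adjusted p = 0.083). Among the regulators Nfe2l2 itself differed by 0.11 ± 0.11 (adjusted p = 0.67) and Keap1, which holds NRF2 for degradation, was nearly constant. Mafg, a small MAF partner of NRF2, rose in the varying genes, with 8.23, 8.33, 8.35 and 8.38 in LPA4-KO arrays, against 8.01, 8.04, 7.93 and 8.18 in WT arrays (0.28 ± 0.06, adjusted p = 0.084 over all genes and 0.028 in the varying genes). Nfe2l1 rose there too (0.26 ± 0.06, adjusted p = 0.11 over all genes and 0.041 in the varying genes). In these genes the groups did not overlap. Of the 12 varying thioredoxins, glutaredoxins and repair genes 1 rose in the varying genes, the methionine sulfoxide reductase Msra (0.36 ± 0.09, adjusted p = 0.11 over all genes and 0.028 in the varying genes). Txndc17, with the smallest p of that list over all genes, differed by -0.20 ± 0.05 and was called in neither fit (adjusted p = 0.10 and 0.053). Of its other 2 varying probe sets, 1 passed among the varying probe sets (-0.24 ± 0.06, adjusted p = 0.042 by limma). The other did not (-0.21 ± 0.06, adjusted p = 0.067).

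The producers of superoxide and peroxide had a median of -0.21 log2 over 9 varying genes, 6 of them negative. None was called over all genes by limma. At an unadjusted p under 0.05 limma found 4 of the 11 measured, where 17.6% of all genes passed. Of the 9 varying it found 3, where 1605 of all 4029 varying genes passed. Nox4, an NADPH oxidase of mesenchymal cells and adipocytes, fell in the varying genes, with 6.99, 6.87, 6.86 and 7.24 in LPA4-KO arrays, against 7.47, 7.42, 7.41 and 7.28 in WT arrays (-0.40 ± 0.09, adjusted p = 0.095 over all genes and 0.024 in the varying genes). Its highest LPA4-KO array, replicate 4, lay just under the lowest WT array. The phagocyte oxidase genes Cybb (-0.37 ± 0.13), Cyba (-0.27 ± 0.11) and Ncf1 (-0.31 ± 0.19) did not pass in either fit. Of the 7 varying genes of haem breakdown, iron and metal binding none was called in either fit, nor was Sephs2, the 1 varying gene of 9 of selenoprotein synthesis. In the list of haem and iron genes the smallest p was that of the biliverdin reductase Blvrb (0.07 ± 0.04, adjusted p = 0.40). Sephs2 differed by 0.04 ± 0.11 (adjusted p = 0.92). At an unadjusted p under 0.05 limma found 0 genes in both of these lists, where 17.6% of all genes passed.

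**Figure D4:**
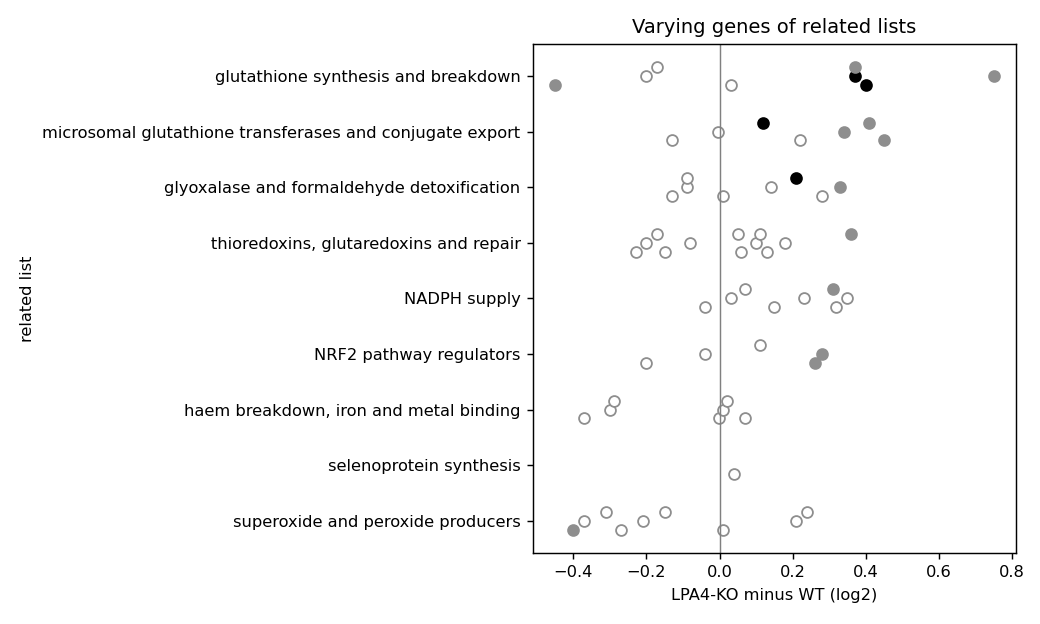
Difference between LPA4-KO and WT mice (log2, horizontal axis) for the 65 varying genes of the 9 related lists, a point for each gene. Black points are the 4 genes called over all genes (Chac2, Lap3, Mgst1 and Hagh), grey points those called in the varying genes alone, and open points the rest.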

How the data were processed

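Total RNA of 8 fat pads was hybridised to Affymetrix 3′ arrays, each mouse on its own array. The authors deposited 1 value per probe set and array, read here as log2 values from their range (5.27 to 14.07). R 2.14.0 is named in the submitters' processing notes, while background correction, normalization and log base were not given in these sources. Array medians were 6.50 to 6.51.

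The platform annotation named 34945 of 45101 probe sets with 1 gene, and 932 had several and were left out. Each of 18193 genes was represented by its probe set of highest mean, and 4029 spanned over 0.1 log2. Genotypes were tested by limma 3.58.1, run in R 4.3.3, with a linear model per gene and trended eBayes variances, without a block, Benjamini-Hochberg adjusted over all genes and again over the varying genes, with a threshold of 0.05. The steps were tested on simulated data.

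Members, lists and the limit on the span were chosen with earlier results of these data known. Named were members called in either fit, the varying member of highest level in each family, and from each list the called genes and the varying gene with the smallest p, and other values follow them. Summed marker levels and control probe sets were compared by exact two-sided permutation over 70 arrangements. The replicates are separate animals per the labels. The number of arrays limits the precision.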

Additional observations from a re-analysis of the deposited data

Results flagged for a closer look

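With 4 arrays in a group, 1 array stood apart from the other 3 in 3 of 86 groups of values examined, and chance alone gives this in about 1 in 20 groups, so 3 is no more than chance would give. Gpx8 in WT replicate 3 stood at 9.06, against 8.75 to 8.78 in the other WT arrays. Gstm5 in LPA4-KO replicate 1 stood at 9.48, against 9.64 to 9.66 in the other LPA4-KO arrays. Gstm4 in LPA4-KO replicate 2 stood at 7.32, against 7.44 to 7.45 in the other LPA4-KO arrays. None of the 3 genes was called in either fit.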

How the results depend on the processing

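Over all genes 1 member, 4 related genes and 239 genes were called. Genes that span over 0.2 log2 gave 6, 15 and 830 and the varying genes 6, 16 and 859. Genes above the median level gave 2 members and 495 genes, array weights 3 and 361, and the 285 genes of single probe sets held 7 related genes. Quantile normalization gave 18, 37 and 9436 (8799 higher and 637 lower, against 157 and 82), and centring over the named genes, chosen after the data were seen, 24, 54 and 14910. Within the varying genes these counts were 7, 15 and 878 (502 higher and 376 lower, against 394 and 465) with quantile normalization and 7, 16 and 880 with centring. The cause was not tested. At a threshold of 0.1 the counts were 4, 10 and 882, and at 0.01 they were 0, 0 and 0. With 1 array left out they were 0 to 0, 1 to 2 and 9 to 88. In the varying genes the 6 members became 2 to 10 with 1 array left out, 2 when LPA4-KO replicate 2 was left out and 10 for WT replicate 2, and were 10 at a threshold of 0.1 and 0 at 0.01. These settings for the 6 were chosen after the data were seen.

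With the replicate block the counts over all genes were 0, 0 and 0 (adjusted p = 0.12 for Sod2), and 6 members were called in the varying genes. Of the 6 called there without the block 5 kept their call, Txnrd3 lost it (adjusted p = 0.052) and Sod3 (-0.31) gained one (adjusted p = 0.047). Same-numbered arrays correlated at 0.02, 0.08, 0.24 and -0.18 in their deviations, and not every array correlated best with its own number. With so few arrays in a group, these correlations cannot decide whether same-numbered arrays are paired. The labels name only a replicate number.

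The difference of Gpx1 turned to 0.01 in the varying genes with quantile normalization or centring and to 0.00 with centring over the named genes, and ranged from -0.06 to 0.04 with 1 array left out (0.01 without LPA4-KO replicate 1 or 3). Gsta3 turned to -0.01 without LPA4-KO replicate 4 (-0.01 to 0.40), Gstz1 to 0.02 without LPA4-KO replicate 3 (-0.12 to 0.02) and Sephs2 to -0.05 and -0.01 without WT replicates 3 and 4 (-0.05 to 0.12). The other genes chosen by the naming rule and recomputed kept their direction under the settings run. Under 5 scalings 23 of 24 varying members kept theirs, Gpx1 being the exception. These scalings moved the differences little, so this is a weak check. The nearly constant values of the chosen probe sets limit what 19 members can show. Sod1 is among them although another of its probe sets varied, so 25 members had some varying probe set.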

Other observations

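Nnt, the transhydrogenase that makes NADPH in mitochondria, was chosen after its values were seen. It stood at 9.56, 8.94, 8.96 and 9.04 in LPA4-KO arrays, against 9.37, 8.97, 8.94 and 7.95 in WT arrays, and did not pass (0.32 ± 0.32, adjusted p = 0.68 over all genes and 0.40 in the varying genes). WT replicate 4 was the lowest array.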
